A study of Mus musculus with 12 samples.

Results

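Kinetochore and centromere genes were followed in B16F10 cells, a mouse melanoma line, with and without Bub1 and with and without radiation. The 40 genes were taken by symbol from a list of proteins that build the centromere and the kinetochore, and all 40 were found among the 55421 genes of both deposited tables, each on 1 row. All 40 passed the filter on low values, a normalized read count of at least 10 in at least 3 of 12 libraries, as did 14721 genes in all.

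The centromere is the chromosome region marked by nucleosomes that carry the histone variant CENP-A, and the kinetochore is the protein machine built on it that holds the chromosome to spindle microtubules in mitosis. A constitutive network of CENP proteins sits on the CENP-A chromatin, and the KNL1, MIS12 and NDC80 complexes assemble on that network, with NDC80 making the microtubule contact. Bub1 is a kinase of the spindle checkpoint that is recruited to the kinetochore and phosphorylates histone H2A there, a mark that helps to bring the chromosomal passenger complex to the inner centromere. Transcripts of many of these proteins are known to be highest in the G2 and M phases of dividing cells.

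The cells carried either a vector (VC) or a CRISPR-Cas9 disruption of Bub1 (Bub1KO), and each genotype was either left without treatment or given 8 Gy of radiation, with 3 libraries in each of the 4 groups. All groups were the same melanoma line in culture, and both genotypes are engineered cells. Neither the number of Bub1KO clones nor the time from radiation to harvest is given in the sources used here. Whether the replicates were grown as independent cultures is not labelled, so each p-value speaks of the spread between these libraries, which may be technical.

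Libraries held 19380726 to 33087366 reads in genes. The summed level of 10 melanocyte markers ran from 409144 to 608546 normalized counts per library, with none of the 10 at 0 in any group, so the markers of the labelled cell type were present throughout. The summed level of 8 leukocyte markers was 33.7 to 38.1 in the untreated libraries and 201 to 328 in the irradiated ones, carried by Cd68, Lyz2 and Cd79a, while Cd3e and Adgre1 were at 0 in all 12 libraries and Ptprc at or near 0. The 7 fibroblast and endothelial markers summed to 173 to 329 and the 6 epithelial markers to 57.2 to 133. Replicate 1 of untreated Bub1KO stood apart. Its counts differed from those of replicates 2 and 3 by a chi-square of 57.7 and 54.9 per gene, against 8.38 between those 2 and at most 19.8 within any other group. In that library GC-rich genes read low against GC-poor ones, with a gap of -0.76 on the log2 scale against 0.06 and 0.12 in the other 2. The gap also moved with radiation in VC, from -0.37 to -0.12 in untreated libraries to 0.15 to 0.34 in irradiated ones. In irradiated Bub1KO the gap was 0.06 to 0.27. Values for untreated Bub1KO include its replicate 1 unless stated. Without it, the log2 changes of the 40 genes that rest on it moved by a median of 0.07 and by at most 0.31 (Pmf1). The effect of leaving it out is given beside the main counts, medians and calls, but not for every role and motif median.

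Bub1 was measured at 2752, 3185 and 2859 normalized counts in the untreated VC libraries and at 1834, 1565 and 1588 in the untreated Bub1KO libraries. After 8 Gy it stood at 1484, 1461 and 1507 in VC and at 886, 989 and 1119.8 in Bub1KO. The Bub1KO libraries were below every VC library under both conditions, at 56.7% of the VC mean without radiation and 67.3% after it. The log2 fold change of Bub1KO over VC was -0.82 (SE 0.101, adjusted p = 0.003, limma) in untreated cells and -0.58 (SE 0.0797, adjusted p = 0.00019, limma) after 8 Gy. Cutting a gene with CRISPR-Cas9 need not remove its transcript, and these values say nothing of the protein.

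**Figure D1:**
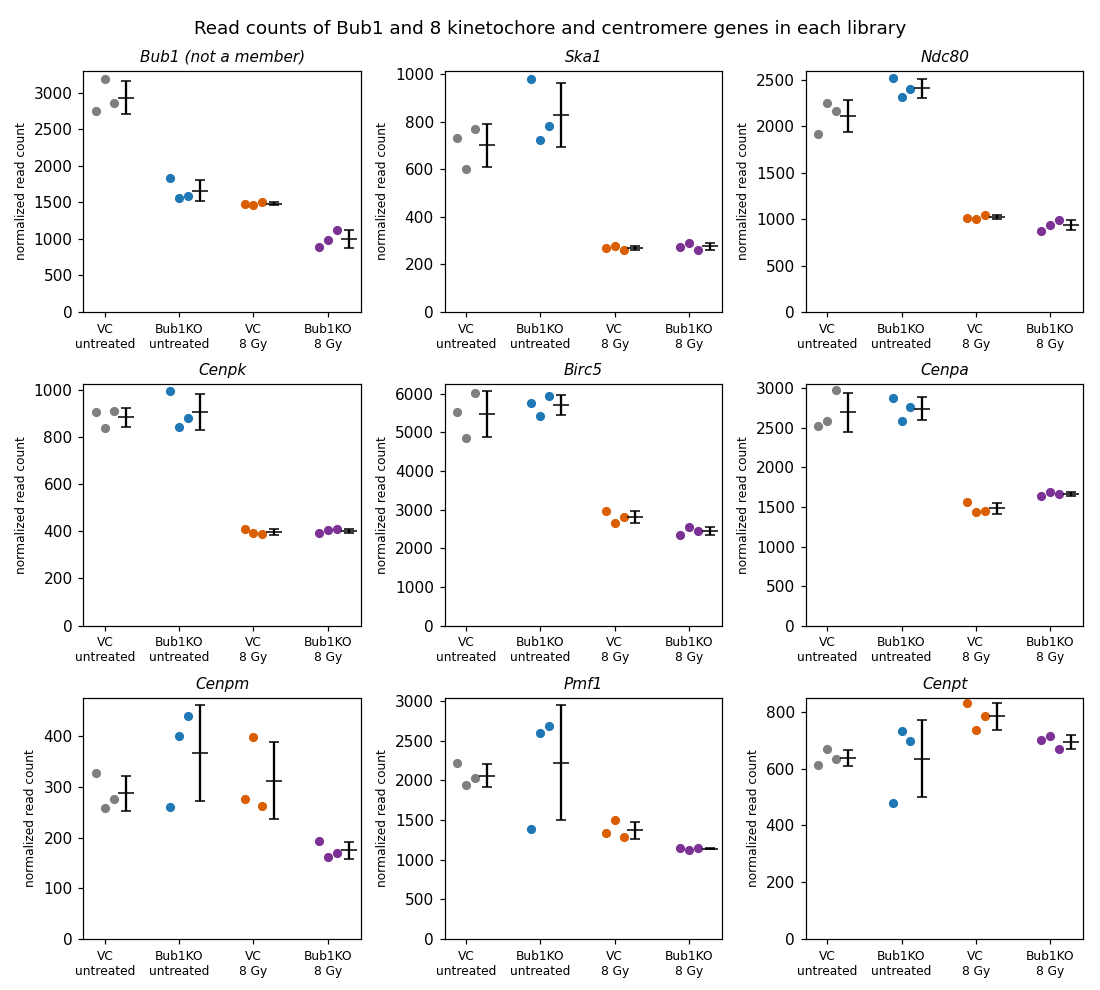
Normalized read counts (y axis, linear, from 0) of Bub1 and 8 kinetochore and centromere genes in the 4 groups (x axis): each point is 1 library, and the bar beside the points is the mean with its SD over 3 libraries. Ska1, Ndc80, Cenpk, Birc5 and Cenpa are lower in every irradiated library than in every untreated one, while Cenpm is low in the irradiated Bub1KO libraries alone, at 162 to 194, and Cenpt is not lower after 8 Gy.

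Radiation lowered most of the kinetochore and centromere transcripts in both genotypes. In VC cells 35 of the 40 genes (87.5%) were lower after 8 Gy and none was higher, where 25.8% of all tested genes were lower and 27.6% higher. In Bub1KO cells 38 of the 40 genes (95%) were lower and none was higher, where 23.9% of all tested genes were lower and 25.4% higher. The median log2 fold change of the 40 genes was -0.80 in VC and -0.93 in Bub1KO, against 0.02 and 0.03 over all tested genes. The same 35 genes passed the threshold in both genotypes, 3 (Cenpm, Cenpp and Cenpw) passed it in Bub1KO but not in VC, and Cenpb and Cenpt passed it in neither. The comparisons were made with limma on log2 of the normalized count plus 1, with p-values adjusted by the Benjamini-Hochberg method over all tested genes and a threshold of 0.05. Without replicate 1 of untreated Bub1KO, 39 genes, Cenpb among them, were lower in Bub1KO with a median of -0.90, where 26% of all tested genes were lower in that fit. In bulk RNA, fewer cells of a kind, such as cells in mitosis, and less RNA per cell cannot be told apart.

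The fall was also seen library by library. Each irradiated VC library had 35 or 36 of the 40 genes below all 3 untreated VC libraries. Each irradiated Bub1KO library had 37 to 39 below those same VC libraries, where the untreated Bub1KO libraries already had 9, 9 and 13. This measure was not counted over all tested genes. The untreated and irradiated values did not overlap for the 35 genes that were lower in VC, where 31.8% of all tested genes had lower values without overlap, and for the 38 that were lower in Bub1KO, where the share was 25.8%. Mki67, a general marker of proliferating cells, kept 36.7% of its untreated mean in VC and 37.0% in Bub1KO, less than any of the 40 genes in VC and less than all but Ska1 in Bub1KO. The p53 target Cdkn1a, an inhibitor of cyclin-dependent kinases, rose to 293% of its untreated mean in VC and 361% in Bub1KO. The share of reads from mitochondrial genes moved with radiation too, from 2.31% to 2.93% of reads in untreated libraries to 3.53% to 3.93% in irradiated ones, as did the leukocyte marker sum above. The part of either in the fall was not tested.

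**Figure D2:**
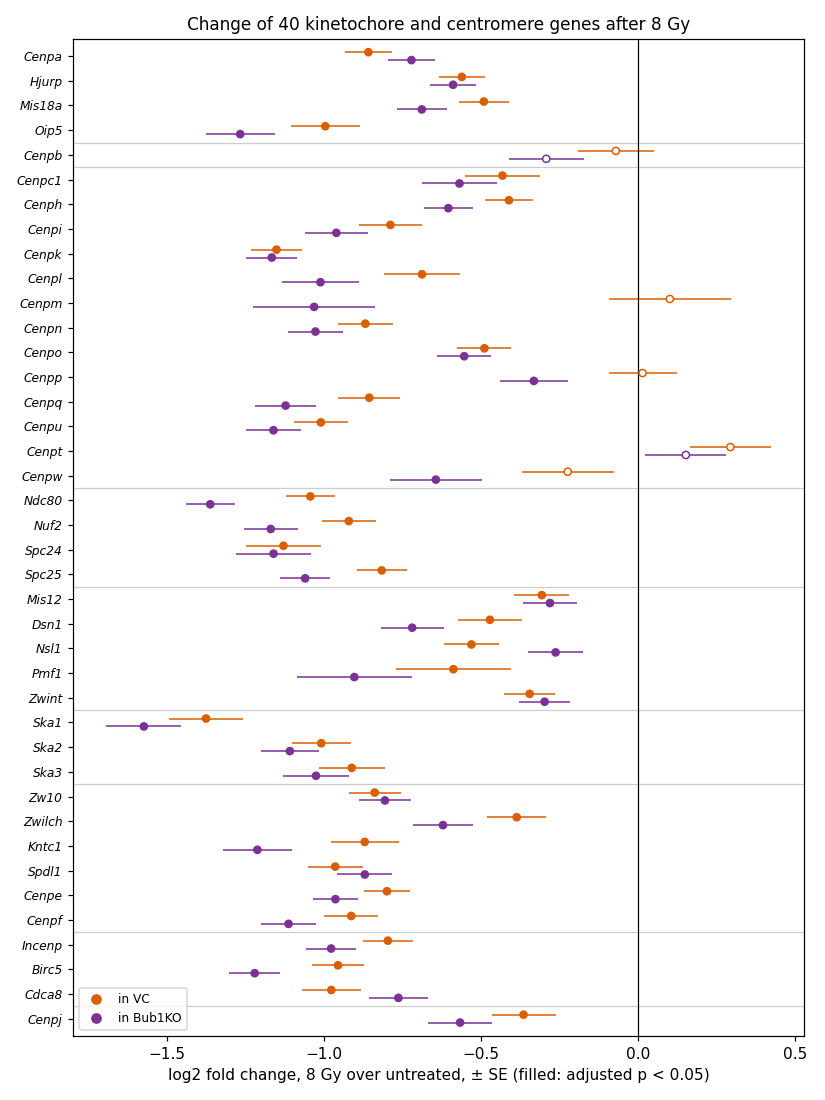
Log2 fold change of 8 Gy over untreated (x axis) with its standard error for each of the 40 genes (y axis, grouped by role), in VC (orange) and in Bub1KO (purple). Filled points passed the threshold and open ones did not. Nearly all points lie left of 0, from -1.57 for Ska1 in Bub1KO, and Cenpt lies right of 0 in both genotypes without passing the threshold (in Bub1KO it turns to -0.04 without the library that stood apart).

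By estimate the size of the fall varied between roles, and not in the same order in both genotypes. The medians by role in VC were -1.01 for the 3 SKA genes, -0.98 for the 4 NDC80 genes, -0.96 for the 3 passenger complex genes, -0.86 for the 6 genes of the RZZ complex and the fibrous corona, -0.71 for CENP-A and its 3 deposition factors, -0.49 for the 13 genes of the constitutive network and -0.47 for the MIS12 complex with Zwint. In Bub1KO they were -1.17 for NDC80, -1.11 for SKA, -0.98 for the passenger complex, -0.96 for the constitutive network, -0.92 for RZZ and the corona, -0.71 for CENP-A and its deposition and -0.30 for MIS12 with Zwint. These medians are a description, and the differences between roles were not tested. Without replicate 1 of untreated Bub1KO, Ska1, Ska2 and Ska3 changed by -1.45, -0.99 and -0.90 in Bub1KO. Birc5, Incenp and Cdca8 then changed by -1.21, -1.08 and -0.85, so the order of SKA and the passenger complex there rests on that library. Levels also differed: per kilobase of exon, untreated VC means ran from 69.3 normalized counts for Cenpj to 1608 for Birc5, with a median near 319.

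Cenpa, the gene of the centromeric histone, was counted at 2530.5, 2586 and 2975 in untreated VC and at 1564, 1438 and 1449 in irradiated VC. In Bub1KO it was counted at 2879, 2586 and 2762 without radiation and at 1638, 1686 and 1659 after it. No irradiated library reached an untreated one in either genotype. The log2 fold change was -0.86 (SE 0.0758, adjusted p = 8.44e-07, limma) in VC and -0.72 (SE 0.0758, adjusted p = 4.04e-06) in Bub1KO. Hjurp, the chaperone that loads CENP-A, and Mis18a, a subunit of the complex that primes centromeres for loading, changed by -0.56 and -0.49 in VC and by -0.59 and -0.69 in Bub1KO. Oip5, the partner of Mis18a, went from 336, 321 and 339 to 179.9, 172 and 147 in VC and from 419, 345 and 369 to 152, 168 and 148 in Bub1KO. Its irradiated means were 50.1% and 41.3% of the untreated ones, and the change in Bub1KO was -1.27 (SE 0.11, adjusted p = 7.37e-07, limma). All 4 genes of this role passed the test in both genotypes.

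Cenpb, which binds a short motif in the satellite DNA of centromeres, was the abundant exception. Its mean was 5211 ± 611 (SD, n = 3) in untreated VC and 4943 ± 339.7 in irradiated VC, and the libraries of the groups overlapped. The change was -0.07 (adjusted p = 0.638) in VC and -0.29 (adjusted p = 0.0573, limma) in Bub1KO. Without the library that stood apart, the change in Bub1KO was -0.41 and passed (adjusted p = 0.00345).

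The constitutive network was the most uneven role, with 9 of its 13 genes lower in VC and 12 of 13 lower in Bub1KO. Cenpk, which forms a module with Cenph, Cenpi and Cenpm, had the largest fall of the network in VC. It went from 907, 838 and 909.7 to 410.3, 393 and 389 normalized counts in VC and from 994, 844 and 882 to 393, 405 and 409 in Bub1KO, changes of -1.15 (SE 0.0809, adjusted p = 1.21e-07) and -1.17 (adjusted p = 1.01e-07). The 6 irradiated libraries lay between 389 and 410.3, with the genotypes overlapping. Cenpu, a subunit of the module that also holds Cenpo, Cenpp and Cenpq and a docking partner of the kinase Plk1, went from 443, 439 and 438 to 213, 214 and 227 in VC and from 468, 474 and 511 to 224, 200.2 and 224 in Bub1KO. Its change was -1.01 (SE 0.0863, adjusted p = 6.29e-07) in VC and -1.16 (adjusted p = 1.84e-07) in Bub1KO.

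Other network genes moved less or differed between genotypes by estimate. Cenpn, which reads the CENP-A nucleosome directly together with its partner Cenpl, changed by -0.87 in VC and -1.03 in Bub1KO, and Cenpl by -0.69 and -1.01. Cenpi changed by -0.79 and -0.96, Cenpq by -0.86 and -1.12, Cenph by -0.41 and -0.60, Cenpo by -0.49 and -0.55, and Cenpc1, whose protein links CENP-A chromatin to the MIS12 complex, by -0.43 and -0.57. All of these passed the threshold in both genotypes. Cenpp stood at 282 ± 18.6 in untreated VC and 284 ± 10.1 in irradiated VC, a change of 0.01 (adjusted p = 0.921), and at 334 ± 25.9 and 266 ± 33.7 in Bub1KO, a change of -0.33 (adjusted p = 0.0202, limma). That call for Cenpp was lost in 5 of the alternative settings, among them without replicate 1 or without replicate 3 of irradiated Bub1KO and without replicate 3 of untreated Bub1KO, with adjusted p up to 0.175. Cenpw, the histone-fold partner of Cenpt, had a change of -0.22 (adjusted p = 0.211) in VC and of -0.64 (adjusted p = 0.0023) in Bub1KO.

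Cenpt was the only 1 of the 40 genes with estimates above 0 in both genotypes when all libraries were kept. Its protein carries a histone fold that contacts centromeric DNA and an extended arm that recruits the NDC80 complex. It was counted at 613, 669 and 634 in untreated VC and at 831, 734 and 786 in irradiated VC, without overlap, a change of 0.29 (SE 0.129, adjusted p = 0.0692, limma) that missed the threshold. In Bub1KO it stood at 479, 732 and 696 without radiation and at 699.6, 716 and 668 after it, where the low value of 479 belongs to the library that stood apart. The change there was 0.15 (adjusted p = 0.35), and without that library it turned to -0.04 (adjusted p = 0.695, limma). With the trends on GC content removed, and in the fit on the 6 VC libraries alone, Cenpt passed as higher after 8 Gy in VC.

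The 4 NDC80 complex genes fell together. Ndc80, whose protein head binds the microtubule, went from 1913, 2251 and 2168 to 1015, 1003 and 1045 in VC and from 2517, 2311 and 2398 to 877, 939 and 993 in Bub1KO. The changes were -1.04 (SE 0.0777, adjusted p = 1.96e-07) and -1.36 (adjusted p = 1.92e-08, limma), and the latter was the smallest adjusted p of the 40 genes in either genotype. Nuf2, its partner at the microtubule end, changed by -0.92 in VC and -1.17 in Bub1KO. Spc24 and Spc25 form the pair that anchors the complex to the inner kinetochore. Spc24 went from 1121, 1096 and 1266 to 537, 524 and 527 in VC, a change of -1.13 (SE 0.12, adjusted p = 4.15e-06), and from 894, 1263 and 1206 to 553, 469 and 467 in Bub1KO, a change of -1.16. Spc25 changed by -0.82 and -1.06.

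The MIS12 complex, which joins the network to NDC80, and Zwint, which binds KNL1, had smaller changes by median, and all of these genes passed the test. In VC they ran from -0.59 for Pmf1 to -0.31 for Mis12, with Nsl1 at -0.53, Dsn1 at -0.47 and Zwint at -0.35. In Bub1KO Pmf1 was at -0.90, Dsn1 at -0.72, Zwint at -0.30, Mis12 at -0.28 and Nsl1 at -0.26. Without the library that stood apart, Pmf1 was at -1.21 there (adjusted p = 4.68e-09, limma). Dsn1 was then at -0.68, Nsl1 at -0.32, Zwint at -0.23 and Mis12 at -0.19. The call for Pmf1 in VC was lost without replicate 1 of untreated VC (adjusted p = 0.0541, limma). In Bub1KO the calls for Mis12 and Nsl1 were lost in 2 and 5 settings, with adjusted p up to 0.0787 and 0.0843, among them the fit on the 6 libraries compared and the fits without replicate 1 (Mis12), replicate 2 or replicate 3 (Nsl1) of irradiated Bub1KO and without replicate 2 or replicate 3 (Nsl1) of untreated Bub1KO.

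The SKA complex tracks the ends of microtubules and helps NDC80 to stay attached. Ska1, its microtubule-binding subunit, had the largest fall of all 40 genes in both genotypes. It was counted at 734, 599.8 and 769 in untreated VC and at 268, 276 and 259.6 in irradiated VC. In Bub1KO it was counted at 979, 724 and 785 before and at 274, 291 and 262 after radiation. The irradiated means were 38.2% of the untreated mean in VC and 33.3% in Bub1KO, log2 changes of -1.38 (SE 0.119, adjusted p = 7.02e-07) and -1.57 (adjusted p = 2.15e-07, limma). The irradiated libraries of the genotypes overlapped. The untreated means, 829 ± 133 in Bub1KO and 701 ± 89.1 in VC, did not differ by the test (adjusted p = 0.411). Ska2 changed by -1.01 and -1.11, and Ska3 by -0.91 and -1.03.

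The RZZ complex of Zw10, Zwilch and Kntc1 forms the fibrous corona that captures microtubules and holds checkpoint proteins and dynein. Kntc1 went from 2436, 2606 and 2447 to 1431, 1519 and 1167 in VC and from 2736, 2850.4 and 2406 to 1007, 1173 and 1274 in Bub1KO, changes of -0.87 (SE 0.109, adjusted p = 1.86e-05) and -1.21 (adjusted p = 9.97e-07, limma). Zw10 changed by -0.84 and -0.81. Zwilch had the smallest fall of this role in both genotypes, -0.39 and -0.62. Spdl1, the adaptor that brings dynein to the corona, changed by -0.96 and -0.87, Cenpe, a kinesin that carries chromosomes to the spindle equator, by -0.80 and -0.96, and Cenpf, a large coiled-coil protein of the corona, by -0.91 and -1.11. All 6 were lower in both genotypes.

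The chromosomal passenger complex joins the kinase Aurkb to Incenp, Birc5 and Cdca8 and releases faulty attachments at the inner centromere. Birc5, also known as survivin, was counted at 5523, 4857 and 6034 in untreated VC and at 2963, 2652 and 2819 in irradiated VC. In Bub1KO it was counted at 5766, 5416 and 5936 before and at 2346, 2541 and 2452 after radiation. The changes were -0.96 (SE 0.0818, adjusted p = 6.37e-07) and -1.22 (adjusted p = 7.72e-08, limma). Incenp, the scaffold, changed by -0.80 and -0.98, and Cdca8, known as borealin, by -0.98 and -0.76. Aurkb itself, which was not among the 40 genes, changed by -0.85 and -1.12. Cenpj, whose protein builds centrioles although it bears a CENP name, changed by -0.37 in VC and -0.57 in Bub1KO.

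Promoters were examined because most of the 40 genes were lower after radiation. Promoters of late cell-cycle genes often hold a cell cycle homology region (CHR, TTTGAA), bound by the MuvB core of the DREAM complex, beside CCAAT boxes bound by NF-Y, while promoters of genes of the G1 to S transition often hold E2F sites. RefSeq windows on GRCm38.p6, from 250 bases before to 50 bases after each transcription start, were matched by symbol for 35 of the 40 genes, and none was used for Spc24, Ska1, Nsl1, Incenp and Zwilch. Both strands were searched, a match is only a match of letters, and no motif searched contains another. TTTGAA stood in 15 of the 35 windows (42.9%), where 18.1% of 27025 mouse promoters hold it. CCAAT stood in 23 (65.7%), where 37.9% of all promoters hold it, and 1 of the E2F motifs TTTGGCGC, TTTCCCGC and TTTCGCGC in 4 (11.4%), where 1.91% of all promoters hold one.

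In 4 genes, Cenpn, Cenpw, Kntc1 and Ska3, TTTGAA lay within 30 bases before the start, and the 60 bases before each start are shown to place it beside the CCAAT boxes. The capitals mark TTTGAA and CCAAT on either strand (TTCAAA and ATTGG when the other strand holds them), and each sequence reads 5′ to 3′ on the strand of the gene.
Cenpn (chr8:116921680-116921739, plus strand): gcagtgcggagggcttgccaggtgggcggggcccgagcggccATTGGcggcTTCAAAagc
Cenpw (chr10:30200541-30200600, minus strand): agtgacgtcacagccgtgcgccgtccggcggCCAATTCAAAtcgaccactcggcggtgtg
Kntc1 (chr5:123749666-123749725, plus strand): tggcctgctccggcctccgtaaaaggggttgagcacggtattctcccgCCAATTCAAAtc
Ska3 (chr14:57826164-57826223, minus strand): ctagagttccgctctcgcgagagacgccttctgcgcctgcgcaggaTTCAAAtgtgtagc
In Cenpw and Kntc1 the CCAAT box and TTTGAA overlap, in Cenpn they are separated by a few bases, and in Ska3 the TTTGAA match stands without a CCAAT box in the window. The 4 genes differed in their response in VC: Ska3 changed by -0.91, Kntc1 and Cenpn both by -0.87 and Cenpw by -0.22, which did not pass the threshold.

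The 200 bases before the start are given for Cenpk, Ndc80 and Cenpu, which had the largest changes in VC among genes with a window, and for Cenpt, which was chosen after its values were seen, since its estimates were above 0. Capitals mark the same motifs.
Cenpk (chr13:104228411-104228610, plus strand): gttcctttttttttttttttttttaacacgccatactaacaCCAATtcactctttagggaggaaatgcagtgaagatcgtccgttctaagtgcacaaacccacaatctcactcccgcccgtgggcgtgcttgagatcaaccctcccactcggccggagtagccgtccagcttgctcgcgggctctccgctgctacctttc
Ndc80 (chr17:71526858-71527057, minus strand): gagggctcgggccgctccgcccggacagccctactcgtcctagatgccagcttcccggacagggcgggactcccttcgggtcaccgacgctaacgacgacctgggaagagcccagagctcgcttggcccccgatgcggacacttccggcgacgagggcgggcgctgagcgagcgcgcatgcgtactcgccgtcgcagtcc
Cenpu (chr8:46551869-46552068, plus strand): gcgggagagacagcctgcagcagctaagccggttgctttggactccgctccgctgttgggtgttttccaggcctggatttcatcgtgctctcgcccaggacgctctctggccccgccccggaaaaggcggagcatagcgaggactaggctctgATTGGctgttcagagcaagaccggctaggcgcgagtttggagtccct
Cenpt (chr8:105852009-105852208, minus strand): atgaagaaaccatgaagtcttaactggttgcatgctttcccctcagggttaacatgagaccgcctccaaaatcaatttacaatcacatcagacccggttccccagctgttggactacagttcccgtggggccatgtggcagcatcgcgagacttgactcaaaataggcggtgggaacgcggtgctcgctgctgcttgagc
Cenpk and Cenpu each show a CCAAT box and no TTTGAA, the stretch before the start of Ndc80 shows neither and its TTTGAA match lies after the start, and the Cenpt window held none of the motifs. The 3 largest falls thus included windows with and without TTTGAA.

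Over all matched genes, the 15 with TTTGAA had a median change of -0.87 in VC and the 20 without it -0.48, with 14 and 16 of them lower after 8 Gy. The 23 with CCAAT had a median of -0.82 and the 12 without it -0.49. The 4 with an E2F motif (Cenpb, Cenpl, Cenpm and Dsn1) had a median of -0.27, against -0.84 for the other 31. In Bub1KO the medians were -1.01 with and -0.70 without TTTGAA, -0.96 with and -0.70 without CCAAT, and -0.87 with and -0.90 without an E2F motif. The E2F split of VC was thus not seen there with all libraries kept. Without replicate 1 of untreated Bub1KO, Cenpb, Cenpl, Cenpm and Dsn1 changed by -0.41, -0.92, -1.26 and -0.68. The motif medians in Bub1KO were not computed without that library. In VC the groups overlapped widely: changes ran from -1.04 to -0.22 with TTTGAA and from -1.15 to 0.29 without it. The medians are a description without a test, and say nothing of binding.

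**Figure D3:**
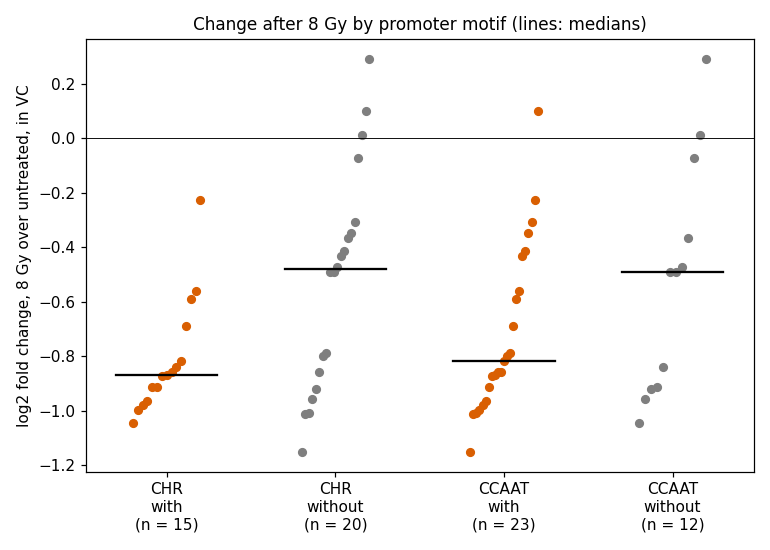
Log2 fold change of 8 Gy over untreated in VC (y axis) for the 35 genes with a promoter window, split by whether it holds TTTGAA (CHR) or CCAAT (x axis). Each point is 1 gene, spread sideways in order of value, and the lines are the medians, -0.87 with and -0.48 without TTTGAA and -0.82 with and -0.49 without CCAAT.

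The size of the fall was next compared between the genotypes through the interaction, which subtracts the change after 8 Gy in VC from that in Bub1KO. None of the 40 genes passed the threshold (edgeR called none and DESeq2 called Cenpm), where 0.55% of all tested genes passed. An unadjusted p under 0.05 (limma) was found for 7 of the 40 genes and for 1784 of the 14721 tested genes. The estimate was negative, a larger fall in Bub1KO, for 33 of the 40 genes and positive for 7, with a median of -0.19 against 0.00076 over all tested genes. Over all tested genes 7347 estimates were negative and 7374 positive. A p that misses the threshold does not show that the genotypes responded alike. Without replicate 1 of untreated Bub1KO, Cenpm (-1.36, adjusted p = 0.0011), Pmf1 (-0.62, adjusted p = 0.00153) and Incenp (-0.28, adjusted p = 0.0332, limma) passed, all with a larger fall in Bub1KO. These are 7.5% of the 40 genes, where 7.53% of all tested genes passed in that direction in the same fit. There the estimate was negative for 28 genes and positive for 12, with a median of -0.17.

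Cenpm had the smallest interaction p. Its protein is a subunit of the network with the fold of a small GTPase. It was counted at 327, 259 and 277 in untreated VC, at 260.2, 401 and 439 in untreated Bub1KO, at 276, 399 and 263 in irradiated VC and at 194, 162 and 169 in irradiated Bub1KO. All 3 irradiated Bub1KO libraries lay below the other 9, while the other groups overlapped and spread more widely. The change after 8 Gy was 0.10 (SE 0.193, adjusted p = 0.681) in VC and -1.03 (SE 0.193, adjusted p = 0.00057, limma) in Bub1KO, and the interaction was -1.13 (SE 0.273, adjusted p = 0.103). Ndc80 and Birc5 followed, with interactions of -0.32 (SE 0.11, adjusted p = 0.249) and -0.26 (SE 0.116, adjusted p = 0.377, limma), from the counts given above. Of the genes with positive estimates, Nsl1 was highest at 0.27 (adjusted p = 0.408), from means of 711 and 491 in VC and of 623 and 519 in Bub1KO.

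In untreated cells no difference between Bub1KO and VC was detected in these transcripts. None of the 40 genes passed the test (edgeR and DESeq2 called none), where 4.01% of all tested genes passed. None of the 40 had an unadjusted p under 0.05 (limma), where 2817 of the 14721 tested genes did. The estimates ran from -0.19 for Nsl1 to 0.32 for Cenpm, 21 above 0 and 19 below, with a median of 0.03 against -0.01 over all tested genes. The lowest adjusted p was 0.309 (limma), shared by Cenpp and Ndc80. The groups did not overlap for 6 genes, with Cenpp, Ndc80, Oip5, Cenpj and Cenpu higher and Cenpn lower in Bub1KO, where 25.6% of all tested genes had groups without overlap.

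The spread in this comparison was wide for some genes that read low in the library that stood apart. Pmf1 was counted at 1388, 2597 and 2685 in untreated Bub1KO against 2216, 1937 and 2024 in VC, and Incenp at 4033, 4919 and 4999.9 against 4600.1, 4529 and 4841. In that library, the deviation of the 40 genes from the mean of its other replicates fell with their GC content (Pearson r = -0.53, Spearman rho = -0.49, across 40 genes of 1 library, which are not independent replicates). The trend was not particular to it: r was 0.50 in replicate 1 and -0.40 in replicate 3 of irradiated Bub1KO, and -0.37 in replicate 2 of untreated VC. The median size of the deviations was 0.21 in the library that stood apart, against 0.11, 0.11 and 0.10 in those. Without replicate 1 of untreated Bub1KO, 2 genes, Cenpm (0.55, adjusted p = 0.0112) and Pmf1 (0.36, adjusted p = 0.0097, limma), were higher in untreated Bub1KO, 5% of the 40 where 10.2% of all tested genes were higher in the same fit. The median of the 40 genes was then 0.0082.

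After 8 Gy, 10 of the 40 genes (25.0%) were lower in Bub1KO than in VC and none was higher, where 16.4% of all tested genes were lower and 14.3% higher. They were Mis18a of CENP-A deposition, Cenpm, Cenpn and Cenpq of the network, Pmf1 of the MIS12 complex, Ska3 of the SKA complex, Zwilch and Cenpf of the corona, and Incenp and Birc5 of the passenger complex. No NDC80 gene was among them, with changes of -0.15 to -0.10. Estimates were negative for 34 of the 40 genes, with a median of -0.13 against -0.01 over all tested genes, and 18 genes (45.0%) had lower values in Bub1KO without overlap, where 22.6% of all tested genes did. The differences were small: apart from Cenpm they ran from -0.34 to -0.18 among the genes that passed.

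Cenpm was the largest, with the irradiated Bub1KO mean of 175 ± 16.9 (SD, n = 3) at 56.0% of the irradiated VC mean of 313 ± 75.4, a log2 change of -0.81 (SE 0.145, adjusted p = 0.00113, limma). Cenpq, counted at 639, 652 and 714 in irradiated VC and at 507, 486 and 599 in irradiated Bub1KO, changed by -0.34 (SE 0.0895, adjusted p = 0.0125, limma). In untreated cells the Cenpq libraries of the genotypes overlapped, at 1247, 1269 and 1119 in VC and 1276, 1097 and 1092 in Bub1KO. Cenpn, at 506, 479 and 518 against 366, 415 and 441, changed by -0.30 (SE 0.0878, adjusted p = 0.0197, limma), and it was also lower without overlap in untreated Bub1KO, at 813, 781 and 898 against 926, 903 and 919, where the difference did not pass.

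Pmf1, at 1331, 1494 and 1284 against 1145, 1127 and 1143, changed by -0.26 (SE 0.0688, adjusted p = 0.0114, limma). Mis18a, at 460.1, 470.2 and 483 against 394, 370.1 and 431, changed by -0.24 (SE 0.0835, adjusted p = 0.0411, limma), and its untreated values of 674, 688 and 627 in VC and 649, 639 and 636 in Bub1KO overlapped. In all 5 of these genes every irradiated Bub1KO library was below every irradiated VC library.

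The other genes that passed were Ska3 and Zwilch, both at -0.24, Birc5 at -0.20, Incenp at -0.19 and Cenpf at -0.18. Cenpa went the other way by estimate, with all 3 irradiated Bub1KO libraries above all 3 irradiated VC ones and a change of 0.16 (SE 0.0603, adjusted p = 0.0556, limma) that did not pass, although it passed with TMM normalization (8 lower and 1 higher) and with a minimum of 50 (12 lower and 1 higher). Outside the 40 genes, Aurkb changed by -0.21 (adjusted p = 0.0163) and Knl1, the platform on which Bub1 docks, by -0.45 (adjusted p = 0.0134, limma).

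The number of calls varied with the setting. With no filter on low values only Incenp passed, and in the fit on all 12 libraries only Cenpm, Cenpn and Cenpq did. With replicate 1, 2 or 3 of irradiated VC left out, 3, 6 and 6 genes passed. With replicate 1 or 2 of irradiated Bub1KO left out, 4 passed each time, while 14 passed without its replicate 3. Of all tested genes 3513, 3045 and 4744 passed without replicate 1, 2 or 3 of irradiated Bub1KO. Some of these counts among the 40 include genes outside the 10. Without replicate 2 of irradiated VC the calls for Mis18a, Pmf1, Ska3, Zwilch and Cenpf were lost. Without its replicate 3 those for Mis18a, Cenpn, Ska3, Zwilch, Cenpf and Birc5 were lost. None of the 10 genes kept its call under every alternative, and all 10 kept their direction under every one. The call for Cenpm was lost in 1 setting, the one without a filter (adjusted p = 0.0764). In the authors' deposited table, 3 of the 40 genes were lower in Bub1KO after 8 Gy and none was higher at an adjusted p under 0.05, and none differed in untreated cells. The share of all genes past that threshold in the authors' results was not counted, so these 3 have no background beside them.

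**Figure D4:**
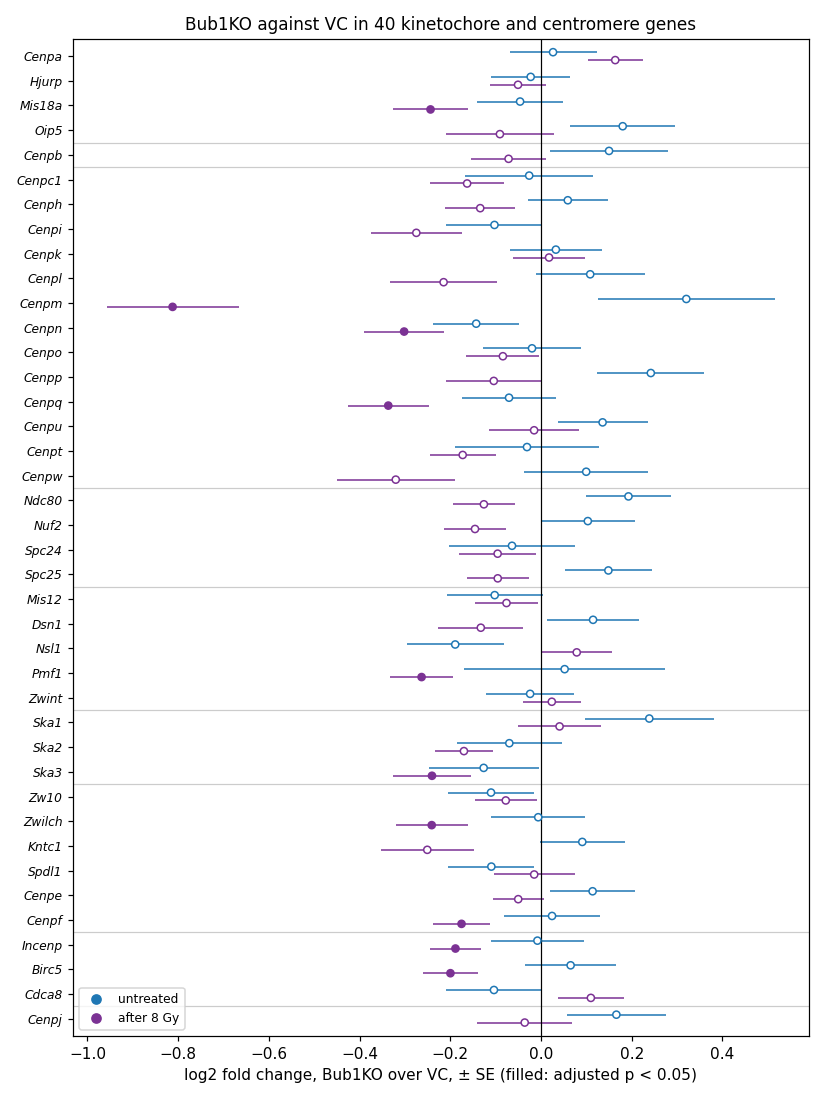
Log2 fold change of Bub1KO over VC (x axis) with its standard error for each of the 40 genes (y axis, grouped by role), in untreated cells (blue) and after 8 Gy (purple). Filled points passed the threshold: none did in untreated cells, and 10 did after 8 Gy, all below 0, with Cenpm at -0.81.

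Other genes of the same machinery and of cell division were set beside the 40. Of 26 further kinetochore and centromere genes, 20 were lower and 2 higher after 8 Gy in VC (median -0.56), and 20 lower and 1 higher in Bub1KO (median -0.55). Of 8 spindle checkpoint genes, 6 were lower in VC (median -0.88), and 7 lower and 1 higher in Bub1KO (median -0.77). All 20 mitosis genes were lower in both (medians -0.87 and -1.07), and of 20 DNA replication genes 18 were lower in VC and 19 in Bub1KO (medians -0.88 and -1.06). Of all tested genes 25.8% were lower and 27.6% higher in VC, and 23.9% lower and 25.4% higher in Bub1KO. The fall of the 40 genes, with medians of -0.80 and -0.93, thus lay among those of the other cell division lists.

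The same lists were compared between the genotypes after 8 Gy. There 9 of the 26 further kinetochore genes were lower and 3 higher in Bub1KO (median -0.13), 5 of the 8 checkpoint genes were lower (median -0.22), 11 of the 20 mitosis genes (median -0.21) and 9 of the 20 replication genes (median -0.20). Of all tested genes 16.4% were lower and 14.3% higher in that comparison. In untreated cells 1 of the 26 was higher and none of the other lists' genes passed, where 4.01% of all tested genes passed. The interaction estimate was negative for 17 of the 20 mitosis genes (median -0.16) and 17 of the 20 replication genes (median -0.15). It was negative for 15 of the 26 further kinetochore genes (median -0.06) and 5 of the 8 checkpoint genes (median -0.14). Ccnb1, the mitotic cyclin, had means of 2018 ± 29.6 in VC and 1649 ± 159 in Bub1KO after 8 Gy, a change of -0.29 (adjusted p = 0.00686, limma). Mki67 did not differ by the test, at 5665 ± 283 and 5599 ± 295.

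Reads of some of these genes may be shared with a neighbour. Oip5, Cenpk, Cenpo, Cenpp, Cenpq, Cenpu, Mis12, Ska3 and Cdca8 overlap a gene on the opposite strand with a mean over 100 normalized counts. Zwilch and Ska2 overlap weaker ones there, with means of 48.4 and 14.8, and Cenpb overlaps a gene on its own strand with a mean of 161. These overlaps are of whole genes from start to end, introns included, and overlap of exons was not examined. Whether the counting used strand is not stated in the sources used here, so how far reads are shared, if at all, is not known.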

How the data were processed

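RNA-seq of 12 B16F10 libraries was used. Per the submitters' processing notes, the tools were STAR and HTSeq, with Trim Galore, cutadapt and SAMtools, and the build was GRCm38.p6 (mm10). Tool versions, annotation release and strand setting are not stated in the sources used here. The authors deposited 2 tables whose sample columns hold a normalized signal: per the file headers and values, each read count was divided by the size factor of its library. The authors' log2 fold changes, test score and p-values stand in the same deposited tables. Of the value columns, 0 had no sample. Values came out as whole reads for 100% of entries in every library (tolerance 0.01 of a read), so count tests could be run on the recovered reads as alternatives. edgeR's quasi-likelihood test on them called 642 and 4515 genes between genotypes in untreated and irradiated cells, 7990 and 7339 for radiation in VC and Bub1KO, and 81 for the interaction, of which 0, 11, 35, 38 and 0 were among the 40.

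The test was limma-trend (limma 3.58.1, R 4.3.3) on log2(value + 1), a scale that understates changes of low genes, with Benjamini-Hochberg adjustment over 14721 genes. The genotypes were compared on their own 6 libraries. Radiation effects and the interaction were fitted on all 12, which share 1 normalization. Scripts were tested on simulated data. Alternatives were TMM factors, pseudocounts of 0.5 and 5, no filter, a minimum of 50, edgeR 4.0.16, DESeq2 1.42.0, a replicate block, removed GC trends, other library sets and each library left out. Gene positions, exon lengths and GC content came from GENCODE M21, promoters from RefSeq. Values in every library are given for Bub1, Cenpa, the 5 genes with the largest change past the threshold in each two-group comparison and the 3 with the smallest interaction p, and for a few others chosen after their values were seen (Cenpt, Pmf1 and Incenp in untreated cells). The 40 genes, the lists and the tests were chosen with earlier results of these data known.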

Additional observations from a re-analysis of the deposited data

How the results depend on the processing

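Of the 35 genes lower after 8 Gy in VC, 34 kept their call under every alternative, and of the 38 in Bub1KO, 35 did. The counts of genes past the threshold in either direction ran from 34 to 37 and from 35 to 39, and some of those in VC include Cenpt as higher. No gene past the threshold changed direction. In untreated cells the count of genes that differed between genotypes was 0 except without replicate 1 of untreated Bub1KO, where it was 2. After 8 Gy it was 10, but 1 with no filter and 3 in the fit on all 12 libraries, and it ran from 3 to 14 when each library was left out. For the interaction it was 0, but 1 with DESeq2, 1 with GC trends removed and 0 to 3 when each library was left out. Over all tested genes, the untreated genotype comparison called 591 genes, but 329 with no filter, 312 with the replicate block, 1625 with GC trends removed, 1769 on all 12 libraries and 172 to 2736 with a library left out. After 8 Gy it called 4512, but 2062 with no filter, 2105 on all 12 libraries and 3045 to 4744 with a library left out. The interaction called 81, but 283 with DESeq2, 390 with GC trends removed, 47 with the replicate block and 33 to 1447 with a library left out. The cause of these shifts was not tested.

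Same-numbered libraries did not deviate together (correlations of -0.19 to 0.055), so these deviations gave no sign of pairing by replicate number. They cannot show whether same-numbered samples were grown or irradiated together, which is not labelled. With a replicate block, 8 genes were lower in Bub1KO after 8 Gy, and the other 4 counts were 0, 35, 38 and 0 as without the block.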
